A study of Homo sapiens with 4 samples.

Results

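Mitotic genes are 42 genes whose products drive or carry out the division of chromosomes and cytoplasm, from the cyclin-dependent kinase CDK1 to the cytokinesis factor RACGAP1. They were taken by name from the deposited table of 16174 genes, and all 42 are listed there. Of these, 39 were tested because their TPM, averaged over the 4 libraries, reached 1. TPM puts the reads per unit of gene length on 1 common total for each library. The other 3, KIF11, MKI67 and ASPM, lay below that level. Long-read RNA sequencing was used here to ask how repression of SNHG26, which gives rise to a long non-coding RNA, changes cells of the human embryonic stem cell line H9, kept in the primed state. In both arms the cells carried, by transposase and puromycin selection, dCas9-KRAB under a doxycycline switch, that is, a Cas9 that binds but does not cut DNA, joined to the KRAB domain that silences nearby promoters. One arm had 4 pooled guides against SNHG26 and the other had non-targeting control guides. Every library came from cells given doxycycline at 1 µg/mL, so no uninduced cells were compared, and the labels name no single clone. RNA was taken after 2 or 3 days, with 1 library per arm and day. Each arm therefore has 2 libraries that differ in day, and every spread between them includes any effect of the day. The labels do not say whether libraries came from separate cultures, so p-values measure only the spread between these libraries.

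Cells that enter mitosis activate CDK1 with B-type cyclins, build a spindle and attach its microtubules to kinetochores. A checkpoint holds the cell until all chromosomes are attached. The anaphase-promoting complex, a ubiquitin ligase, then marks securin and cyclins for destruction, and the cell divides. Many genes of this programme are transcribed late in the cell cycle. They are kept silent earlier by the DREAM complex and later activated by B-MYB and FOXM1, which reach them through MuvB, a complex that binds a promoter element called CHR (cell cycle genes homology region). CCAAT boxes, bound by NF-Y, usually lie just upstream. Human embryonic stem cells divide quickly and spend little time before S phase, so these genes are widely used to describe their growth.

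RefSeq promoters (GRCh38.p14) were matched for 35 of the 42 genes, with 39 start sites. AURKA, BIRC5, UBE2C, TPX2, RACGAP1, TTK and BUB3 were not matched. The 100 bases before the start site are shown for the 4 matched genes of highest mean TPM that hold a CHR there. Capitals mark the CHR (TTTGAA or TTTAAA) and the CCAAT box (CCAAT), each on either strand, so that TTCAAA and ATTGG are the same elements read from the other strand. The stretches are written 5′ to 3′ on the plus strand, which is the strand of all 4 genes.
CKS2 (chr9:89311095-89311194): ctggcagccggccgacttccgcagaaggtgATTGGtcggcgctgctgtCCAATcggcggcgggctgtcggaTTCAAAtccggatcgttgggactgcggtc
CCNB1 (chr5:69167050-69167149): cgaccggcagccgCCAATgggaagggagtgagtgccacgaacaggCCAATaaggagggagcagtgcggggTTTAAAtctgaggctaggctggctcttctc
CKS1B (chr1:154974581-154974680): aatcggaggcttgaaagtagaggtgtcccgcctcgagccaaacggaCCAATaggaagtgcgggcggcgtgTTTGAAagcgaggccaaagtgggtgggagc
PTTG1 (chr5:160421755-160421854): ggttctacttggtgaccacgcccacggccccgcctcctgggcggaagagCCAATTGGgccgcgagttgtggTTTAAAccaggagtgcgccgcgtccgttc
All 4 stretches have the same layout, with at least 1 CCAAT box upstream and 1 CHR ending 24 or 25 bases before the start site. In PTTG1 the capitals CCAATTGG are a CCAAT box on each strand that overlap. The gene starts listed in the deposited table lie 15 bases (CCNB1) and 28 bases (CKS1B) upstream of these RefSeq start sites, and coincide with them for CKS2 and PTTG1.

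Within 100 bases before the start site, 22 of the 35 genes held a CHR in either form. Counted by start site, this was 59.0% of the 39 promoters of mitotic genes, against 8.24% of all 35116 promoters in the RefSeq table. A CCAAT box was found within the same distance in 64.1% of the mitotic promoters and 18.1% of all. Both elements together were found in 46.2% and 1.59%. The form TTTGAA was held by 16 genes and TTTAAA by 8. A CHR whose nearest base lay 13 to 25 bases before the start site, a range chosen after the positions were seen, was held by 14 genes, among them PLK1, CCNB2, BUB1B, HMMR and MKI67. This position was filled in 35.9% of the mitotic promoters and 1.69% of all. The GC box GGGCGG, searched for comparison, was found in 48.7% and 31.3%, and an E2F site (TTTCGCGC or TTTGGCGC) in none of the mitotic promoters and 0.421% of all. Within 250 bases the CHR was found in 74.4% of the mitotic promoters and 21.9% of all, the CCAAT box in 82.1% and 32.0%, and the GC box in 79.5% and 42.6%. The E2F site was found there in 5.13% and 0.968%, which for the mitotic genes is 2 promoters, those of CDK1 and NUSAP1. A match is a run of letters and not a measured binding site. Genes with and without a CHR in the 100 bases had similar levels, with median TPM values of 6.81 (22 genes) and 5.47 (13 genes).

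The libraries were shallow, and reads were recovered from the values as described under the processing. If each read is counted on the whole span of its gene, the libraries held at most 1044055 and 1220265 reads with SNHG26 guides (day 2, day 3) and at most 947338 and 1135936 with control guides. Day 3 was therefore the deeper day in both arms. SNHG26 itself was listed at 0 and 0.933 TPM with its guides and at 2.98 and 4.03 TPM with control guides (day 2, day 3), a difference that rests on few reads. The label of primed stem cells was checked against 12 markers, of which 11 are listed and 10 had a mean of at least 1 TPM. Their summed level ran from 1702 to 1928 TPM, led by POU5F1. ZIC2 was listed at 0, and TDGF1 is not listed. The listed markers of other cells were low in sum, and a marker that is not listed has no value here. Of 8 mesendoderm markers 3 are listed, summing to at most 1.98 TPM, of 6 neuroectoderm markers 1, at 0, and of 6 amnion and trophectoderm markers 2, summing to at most 1.29 TPM. Of 6 fibroblast markers 3 are listed, summing to 7.95 and 8.17 TPM with SNHG26 guides and 10.7 and 11.9 TPM with control guides. The highest of them, COL1A2, had a mean of 6.00 TPM, near the 6.07 TPM of the primed marker PODXL. In bulk RNA, fewer cells in mitosis and less mitotic mRNA per cell cannot be told apart.

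Levels of the mitotic genes spanned a wide range and were concentrated in a few genes. The 42 genes summed to 0.358% and 0.426% of all listed TPM with SNHG26 guides (day 2, day 3) and to 0.339% and 0.374% with control guides. CKS2, CCNB1, CKS1B, UBE2C, PTTG1 and CDC20 alone made up 81.9% to 83.4% of that sum. For 3087 listed genes, CKS2 and CCNA2 among them, the deposited TPM gave whole reads on the genomic span, introns included. For most of the 42 genes, such as CCNB1 and CDC20, it did not, and the length used is not known. A gene counted on a short length stands higher per read than one counted on a long length. Across the 42 genes, span and mean TPM had a Spearman correlation of -0.805, against -0.342 across the 8274 genes tested. Where reads were counted on the span, it enters the TPM itself. Spans of mitotic genes ran from 4223 bases (CDC20) to 93097 bases (CENPE). The plot of level against span shows this order.

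**Figure D1:**
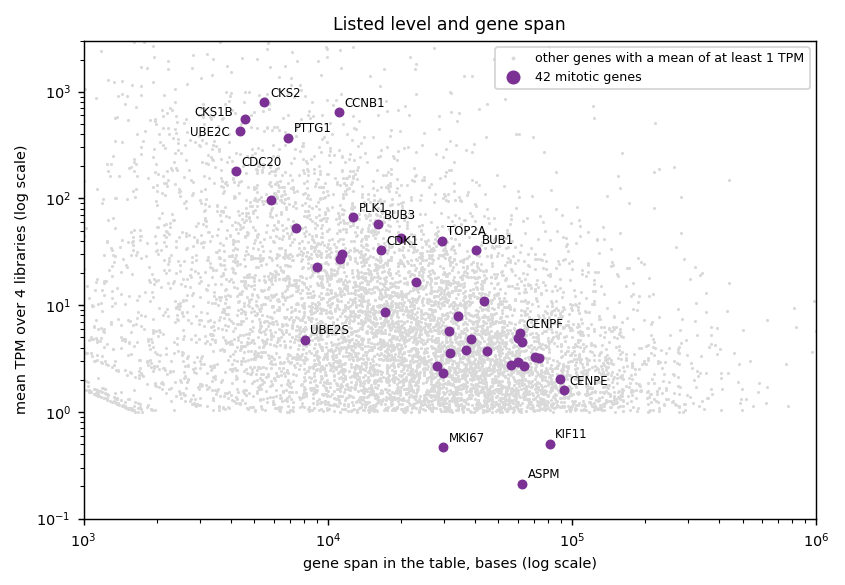
Mean TPM over the 4 libraries (log scale) against the gene span listed in the table, in bases (log scale), for the 42 mitotic genes (purple) and the other genes tested (grey). Short genes such as CKS2 and CDC20 stand highest, and UBE2S, KIF11, MKI67 and ASPM lie low for their span.

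CDK1 and its partners held the highest levels. CKS2, a small protein that docks CDK1 on phosphorylated substrates, was listed at 794 and 941 TPM with SNHG26 guides (day 2, day 3) and at 691 and 758 TPM with control guides. These are 600, 794, 474 and 622 whole reads, the deepest exact counts in the set. The exact Poisson 95% intervals, which cover counting error only, overlapped on day 2, at 732 to 860 TPM with SNHG26 guides and 630 to 756 TPM with control guides. On day 3 they did not, at 877 to 1010 TPM and 700 to 820 TPM. CCNB1, the cyclin B that activates CDK1, stood at 640 and 722 TPM with SNHG26 guides and at 622 and 569 TPM with control guides. CKS1B, the paralog of CKS2, stood at 606 and 541 TPM against 539 and 515 TPM. In each of these 3 genes both SNHG26 libraries lay above both control libraries, by little for CKS1B.

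The kinase and its other cyclins lay lower. CDK1 was the steadiest member, at 33.3 and 31.9 TPM with SNHG26 guides and 33.8 and 31.2 TPM with control guides, and both day 3 libraries were slightly below both day 2 libraries. CCNB2, a second B-type cyclin, stood at 38.4 and 45.7 TPM against 41.7 and 45.4 TPM. CCNA2, the cyclin A that acts in S phase and early mitosis, stood at 61.7 and 48.3 TPM against 46.4 and 56.9 TPM. Its values are 63, 55, 43 and 63 whole reads, and the order of the days was opposite in the arms.

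**Figure D2:**
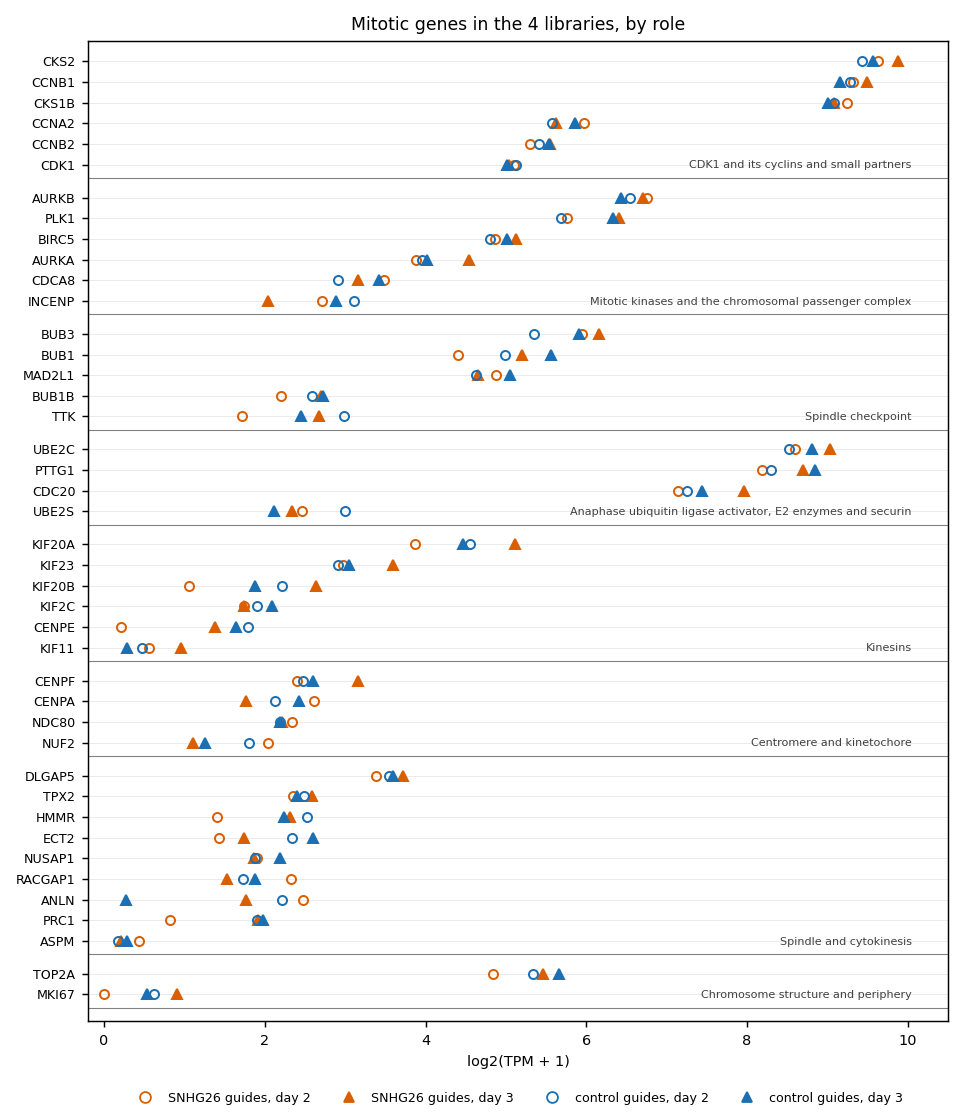
log2(TPM + 1) of each mitotic gene in the 4 libraries, grouped by role and ordered by mean TPM within a role, with orange for SNHG26 guides, blue for control guides, open circles for day 2 and filled triangles for day 3. For PLK1, PTTG1, UBE2C and BUB1 both triangles lie to the right of both circles, and for KIF20B, CENPE, TTK and PRC1 the open orange circle lies to the left of the other 3 symbols.

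Among the mitotic kinases, PLK1, which acts in spindle assembly and mitotic entry, separated by day. It was listed at 53.3 TPM (SNHG26 guides) and 50.4 TPM (control guides) on day 2 and at 84.2 and 79.8 TPM on day 3. Both arms therefore gave nearly the same values on each day. AURKA, the centrosomal kinase, stood at 13.8 and 22.3 TPM with SNHG26 guides and 14.5 and 15.1 TPM with control guides, so that 1 library, SNHG26 guides on day 3, was high. AURKB, the kinase of the chromosomal passenger complex, stood at 107 and 103 TPM with SNHG26 guides and 92.1 and 85.1 TPM with control guides, and the arms did not overlap. The other passenger subunits differed among themselves. BIRC5 (survivin) stood at 28.2 and 33.9 TPM against 27.0 and 31.3 TPM. CDCA8 (borealin) stood at 10.2 and 7.96 TPM against 6.53 and 9.75 TPM. INCENP, the scaffold of the complex, stood at 5.56 and 3.11 TPM against 7.66 and 6.40 TPM, which are 24, 15, 30 and 30 whole reads. AURKB and INCENP thus lay on opposite sides of the control libraries. For INCENP the exact Poisson 95% intervals of the arms overlapped on each day, and neither gene passed the guide test given below.

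In the spindle checkpoint, BUB1, a kinase at the kinetochore, was listed at 20.2 and 35.7 TPM with SNHG26 guides (day 2, day 3) and at 30.8 and 46.0 TPM with control guides. It was higher on day 3 in both arms and lower with SNHG26 guides on both days. BUB3, the adaptor that brings BUB1 to the kinetochore, stood at 60.9 and 70.3 TPM against 39.7 and 59.3 TPM, and both SNHG26 libraries lay above both control libraries. BUB1B (BubR1), an inhibitor of the anaphase-promoting complex, stood at 3.61 and 5.50 TPM against 5.01 and 5.62 TPM. MAD2L1, which binds CDC20 when kinetochores are unattached, stood at 28.5 and 24.1 TPM against 23.8 and 32.2 TPM. TTK (MPS1), the kinase that starts the checkpoint signal, stood at 2.30 and 5.39 TPM against 6.93 and 4.49 TPM. The arms overlapped for BUB1, BUB1B, MAD2L1 and TTK.

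Genes of anaphase onset were among the highest and, other than UBE2S, were higher on day 3. PTTG1 (securin), which holds separase inactive, was listed at 291 and 314 TPM on day 2 (SNHG26 guides, control guides) and at 413 and 460 TPM on day 3. UBE2C, the E2 enzyme that starts ubiquitin chains for the anaphase-promoting complex, stood at 388 and 367 TPM on day 2 and at 523 and 449 TPM on day 3. CDC20, the activator of that complex, stood at 140 and 152 TPM on day 2 and at 249 and 173 TPM on day 3. For these 3 genes both day 3 libraries lay above both day 2 libraries. UBE2S, the E2 enzyme that extends the chains, stood at 4.53 and 4.06 TPM with SNHG26 guides and 6.99 and 3.34 TPM with control guides. These are 5, 5, 7 and 4 whole reads, and 3506 bases of UBE2S overlap RPL28 on the opposite strand, which had a mean of 810 TPM. The level of UBE2S is uncertain, since no source used here says if strand was used in counting.

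Kinesins, the motors that move chromosomes and slide spindle microtubules, had low levels apart from KIF20A. KIF20A, a cytokinesis motor, stood at 13.7 and 33.5 TPM with SNHG26 guides and at 22.5 and 21.2 TPM with control guides. KIF20B stood at 1.07 and 5.23 TPM against 3.66 and 2.69 TPM. CENPE, which carries chromosomes to the spindle equator, stood at 0.157 and 1.61 TPM against 2.46 and 2.13 TPM. In all 3 the day 2 library with SNHG26 guides was the lowest of the 4. KIF23, a centralspindlin subunit, stood at 6.86 and 11.1 TPM against 6.51 and 7.26 TPM. KIF2C, a microtubule depolymerase at centromeres, stood at 2.35 and 2.34 TPM against 2.74 and 3.26 TPM. KIF11 (Eg5), the motor that separates spindle poles, ranged from 0.216 to 0.944 TPM and was not tested.

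At the centromere, CENPF was listed at 4.27 and 7.97 TPM with SNHG26 guides and 4.57 and 5.05 TPM with control guides. CENPA, the histone H3 variant that marks centromeres, stood at 5.13 and 2.41 TPM against 3.36 and 4.38 TPM. NDC80, which with NUF2 forms part of the microtubule-binding complex of the kinetochore, stood at 4.04 and 3.62 TPM against 3.56 and 3.58 TPM, or 25, 25, 20 and 24 whole reads. NUF2 stood at 3.11 and 1.16 TPM against 2.48 and 1.39 TPM. NDC80 was therefore even across the libraries, while its partner NUF2 was lower in both day 3 libraries than in both day 2 libraries.

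Spindle and cytokinesis genes were mostly below 6 TPM. DLGAP5, a microtubule-binding protein of the spindle, was the highest, at 9.40 and 12.2 TPM with SNHG26 guides and 10.6 and 11.1 TPM with control guides. TPX2, the activator of AURKA, was even at 4.08 and 5.01 TPM against 4.63 and 4.30 TPM. ECT2, the exchange factor that turns on RhoA at the division plane, stood at 1.70 and 2.35 TPM with SNHG26 guides and 4.08 and 5.04 TPM with control guides, and the arms did not overlap. Its partner RACGAP1 stood at 4.03 and 1.89 TPM against 2.31 and 2.68 TPM. ANLN (anillin), the scaffold of the contractile ring, stood at 4.56 and 2.41 TPM against 3.62 and 0.210 TPM. One library, control guides on day 3, was thus far below the others for ANLN, at no more than 2.00 reads. PRC1, which bundles microtubules of the central spindle, stood at 0.765 and 2.76 TPM against 2.75 and 2.94 TPM. HMMR stood at 1.64 and 3.97 TPM against 4.77 and 3.72 TPM. For PRC1 and HMMR the day 2 library with SNHG26 guides was again the lowest. NUSAP1, which stabilises spindle microtubules, stood at 2.75 and 2.64 TPM against 2.66 and 3.58 TPM. ASPM, a spindle pole protein, ranged from 0.128 to 0.350 TPM and was not tested.

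TOP2A, the topoisomerase that untangles sister chromosomes, was listed at 27.7 and 43.0 TPM with SNHG26 guides (day 2, day 3) and at 39.3 and 49.8 TPM with control guides. It was higher on day 3 in both arms and lower with SNHG26 guides on both days, as was BUB1. MKI67 encodes Ki-67, the coat protein of mitotic chromosomes and the usual histological mark of dividing cells. Its values are 0, 4, 2 and 2 whole reads, listed at 0 and 0.878 TPM with SNHG26 guides and at 0.540 and 0.451 TPM with control guides. The count was 0 in the day 2 SNHG26 library, where 3 reads on the gene span would equal 0.735 TPM. The exact Poisson 95% intervals of all 4 libraries overlap, from 0 to 0.904 TPM in that library and from 0.239 to 2.25 TPM in the day 3 SNHG26 library, so no difference was detectable at this depth. MKI67 and ASPM have the longest annotated mRNAs of the set in GENCODE release 29 (12678 and 10887 bases). Across the 42 genes the length of the longest coding mRNA and the mean reads behind the TPM had a Spearman correlation of -0.447. Most of those reads are upper bounds from the gene span, which is itself correlated with mRNA length (0.589).

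Several values can share reads with other genes. Listed pseudogenes carry the names of AURKA (AURKAP1, mean 12.5 TPM), MAD2L1 (MAD2L1P1, 13.8 TPM), UBE2C (UBE2CP4, 9.24 TPM), CKS1B (CKS1BP7, 8.55 TPM) and CCNB2 (CCNB2P1, 1.42 TPM). KIF23 lies wholly within the listed KIF23-AS1 on the opposite strand (mean 1.95 TPM). NUSAP1 overlaps OIP5 by 11798 bases, NUF2 overlaps RGS5 by 55216 bases, and CENPA overlaps SLC35F6 by 16943 bases. On the opposite strand, HMMR overlaps NUDCD2 (mean 109 TPM) by 202 bases, and CCNA2 overlaps EXOSC9 (mean 21.4 TPM) by 578 bases. The levels of these mitotic genes are uncertain to that extent.

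The guide comparison asked whether mitotic genes differ after SNHG26 repression. In limma, 0 of the 39 tested genes passed an adjusted p of 0.05 and 0 had an unadjusted p under 0.05. Over all 8274 genes these shares were 0% and 4.07%. A positive difference was seen in 20 genes and a negative one in 19, where 53.3% of all genes were positive. The median difference in log2(TPM + 1) was 0.01, against 0.04 over all genes, and by day it was -0.07 on day 2 and 0.07 on day 3. Quantile normalization and median ratio scaling turned the sign of the median, to -0.02 and -0.04. Both SNHG26 libraries lay above both control libraries in 6 genes, NDC80, CKS2, CCNB1, BUB3, CKS1B and AURKB (15.4%, against 16.1% of all genes tested). For NDC80 the nearest values of the arms, on day 3, were 25 and 24 whole reads. Its exact Poisson 95% intervals overlapped on each day. The SNHG26 libraries lay below in 4, ECT2, CENPE, KIF2C and INCENP (10.3%, against 13.2%). These shares are close to the background. On both days the SNHG26 library was the higher one in 11 genes (28.2%, against 24.8%) and the lower one in 9 (23.1%, against 21.8%). The next limits on mean TPM were chosen after the data were seen. Where the mean TPM was 5 or more, the SNHG26 libraries were higher without overlap in 5 of 23 genes (21.7%, against 18.6%) and lower in 1 (4.35%, against 11.6%). Where it was 50 or more, they were higher in 5 of 10, namely CKS2, CCNB1, CKS1B, AURKB and BUB3 (50.0%, against 25.5%), and lower in 0 (against 8.03%). By role, 5 of 6 genes of CDK1 and its partners and 5 of 6 genes of the kinase and passenger group had positive differences (medians 0.10 and 0.12). Only 1 of 5 checkpoint genes, BUB3, and 1 of 5 tested kinesins, KIF23, did (medians -0.205 and -0.206).

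The largest differences lay in genes with few reads. ECT2 (chromosome 3, 172750682 to 172821474, plus strand) had 2.03 ± 0.462 TPM (SD, n = 2) with SNHG26 guides and 4.56 ± 0.681 TPM with control guides. Its log2 difference averaged -0.88 (SE 0.380), from -0.91 on day 2 and -0.85 on day 3. The limma adjusted p was 0.935 (unadjusted 0.0797), the lowest unadjusted p among the mitotic genes. At most 16.5, 25.5, 35.9 and 53.1 reads lie behind it. CENPE had the most negative difference, -0.92 (SE 0.626), but -1.58 on day 2 and -0.26 on day 3, with at most 2.01 reads in the lowest library. ANLN had the most positive, 0.88 (SE 0.817), which came from the low day 3 control library and became -0.08 without it. Among deep genes, CKS2 (chromosome 9, 89311195 to 89316703, plus strand) had 868 ± 104 TPM against 725 ± 47.5 TPM, a log2 difference of 0.26 (SE 0.151) with an adjusted p of 0.935 in limma. CCNB1 differed by 0.19 (SE 0.143), CKS1B by 0.12 (SE 0.141) and BUB3 by 0.42 (SE 0.296). With 2 libraries against 2 the smallest exact two-sided permutation p is 0.333, so only the fit across all genes could pass.

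**Figure D3:**
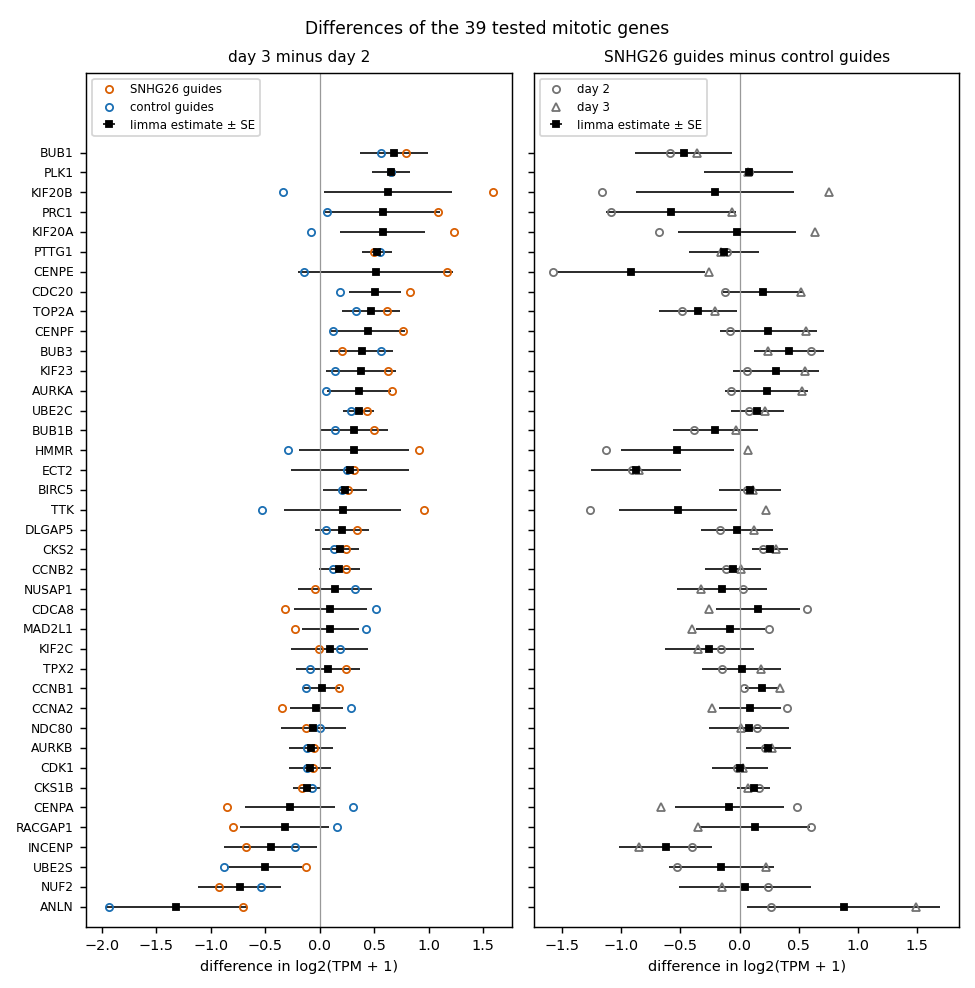
Difference in log2(TPM + 1) for the 39 tested mitotic genes, ordered by the day difference, as the limma estimate ± SE (black) and as the separate values of each pair of libraries (open symbols). In the day panel 28 estimates lie above 0, and in the guide panel 20 do.

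The comparison of day 3 with day 2 asked whether mitotic genes differ with the time in doxycycline. In limma, 0 of the 39 genes passed an adjusted p of 0.05, against 0.0363% of all genes, and 2 (5.13%) had an unadjusted p under 0.05, against 6.61%. The direction was uneven, with 28 positive differences and 11 negative, where 50.7% of all genes were positive. The median difference was 0.20 in log2(TPM + 1), against 0.01 over all genes. It was 0.25 within the SNHG26 arm and 0.12 within the control arm, where the medians of all genes were 0.00 and -0.02. Both day 3 libraries lay above both day 2 libraries in 14 genes (35.9%, against 17.1% of all genes tested) and below in 4 (10.3%, against 18.4%). The 14 were PLK1, PTTG1, UBE2C, CDC20, BUB1, BUB1B, TOP2A, AURKA, BIRC5, CCNB2, CENPF, DLGAP5, KIF23 and PRC1, and the 4 were ANLN, UBE2S, NUF2 and CDK1. Some of these separations were very small. For PRC1 the nearest values of the days were 2.76 TPM (SNHG26 guides, day 3) and 2.75 TPM (control guides, day 2). For UBE2S they were 4.53 TPM on day 2 and 4.06 TPM on day 3, both with SNHG26 guides. Each of these UBE2S values is 5 whole reads, so the read count itself did not differ there. The limits on mean TPM used for the guides, chosen after the data were seen, were applied here too. Where the mean TPM was 5 or more, day 3 was the higher day without overlap in 12 of 23 mitotic genes (52.2%, against 18.7%) and the lower in 1 (4.35%, against 19.4%). Where it was 50 or more, these were 4 of 10 (40.0%, against 22.1%) and 0 (against 18.9%). In both arms day 3 was higher in 17 genes (43.6%, against 24.3%) and lower in 7 (17.9%, against 24.8%). The day 3 libraries were also the deeper ones, and the part of depth in this pattern was not tested.

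PLK1 and PTTG1 had the smallest day p-values. PLK1 (chromosome 16, 23677656 to 23690367, plus strand) had 51.8 ± 2.05 TPM on day 2 and 82.0 ± 3.09 TPM on day 3 (SD, n = 2). Its log2 difference was 0.65 in each arm, with a mean of 0.65 (SE 0.174), an unadjusted p of 0.0207 and a limma adjusted p of 0.595. PTTG1 (chromosome 5, 160421855 to 160428739, plus strand) had 302 ± 16.0 TPM on day 2 and 436 ± 33.6 TPM on day 3. Its difference was 0.50 with SNHG26 guides and 0.55 with control guides, with a mean of 0.53 (SE 0.137), an unadjusted p of 0.0194 and a limma adjusted p of 0.586. For both genes the gap between days was larger than the spread between the arms, and neither passed the threshold. BUB1 differed by 0.68 (SE 0.313), CDC20 by 0.51 (SE 0.236), TOP2A by 0.47 (SE 0.267) and UBE2C by 0.36 (SE 0.142). ANLN had the most negative difference, -1.32 (SE 0.647), and NUF2 followed with -0.73 (SE 0.384).

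By role, all 5 spindle checkpoint genes and all 5 tested kinesins had positive day differences, where 50.7% of all genes were positive. The medians were 0.32 and 0.51. Of the anaphase genes 3 of 4 were positive (median 0.43), and of the spindle and cytokinesis genes 6 of 8 (0.17). CDK1 and its partners were split 3 to 3 (median -0.0039), and of the centromere genes 1 of 4 was positive (-0.17). None of these genes passed the test. For 4 of the 5 tested kinesins the sign differed between the arms. KIF20A differed by 1.24 in the SNHG26 arm and by -0.08 in the control arm, KIF20B by 1.59 and -0.34, and CENPE by 1.17 and -0.14, while KIF2C differed by -0.0046 and 0.18. KIF23 was positive in both arms, at 0.62 and 0.14. TTK and HMMR were likewise positive in the SNHG26 arm only, with 0.95 and 0.91 in the SNHG26 arm and -0.53 and -0.29 in the control arm. MAD2L1 was positive in the control arm only, at -0.23 in the SNHG26 arm and 0.42 in the control arm. Of the checkpoint genes, BUB1, BUB1B and BUB3 were positive in both arms.

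**Figure D4:**
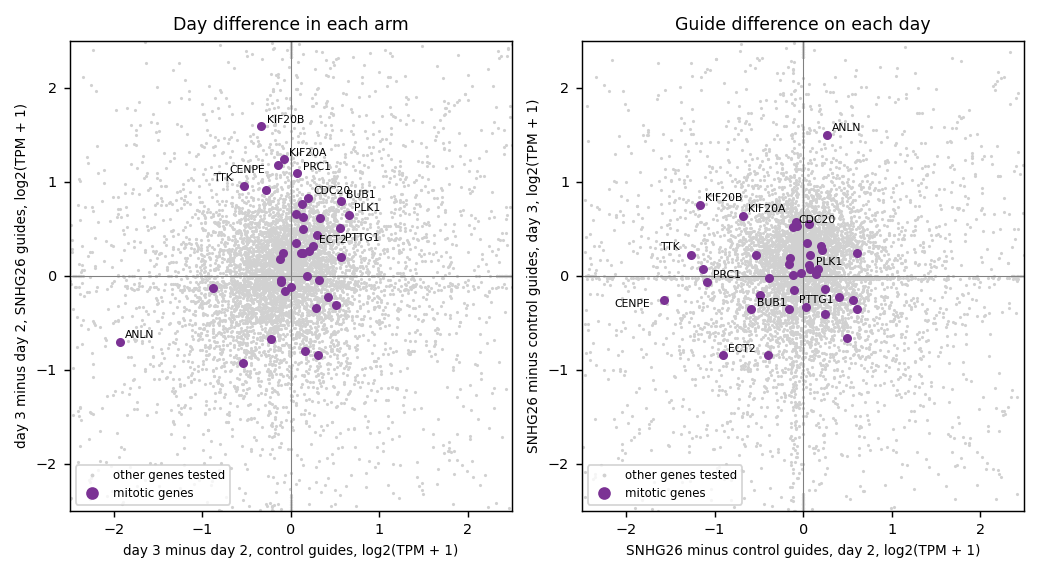
Left, the difference between days in the control arm (x) and in the SNHG26 arm (y). Right, the guide difference on day 2 (x) and on day 3 (y), all in log2(TPM + 1), for mitotic genes (purple) and other genes tested (grey), with axes limited so that some grey points lie outside. PLK1, PTTG1 and BUB1 lie in the upper right of the left panel, and KIF20B, TTK and CENPE lie far to the left in the right panel.

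The day 2 library with SNHG26 guides held the lowest value of 17 of the 39 tested genes (43.6%, against 21.5% of all genes tested). The control library of day 2 held 10 (25.6%, against 21.1%). Both day 3 libraries held 6 each (15.4%), against 19.3% of all genes with SNHG26 guides and 25.5% with control guides. The highest value lay in the day 3 SNHG26 library for 15 genes (38.5%, against 28.1%). The 17 included KIF20A, KIF20B, CENPE, TTK, HMMR, PRC1, TOP2A, BUB1 and ECT2. Many of these rest on few reads. In the day 2 SNHG26 library CENPE had at most 2.01 reads, PRC1 3.11, HMMR 7.13, KIF20B 10.8 and TTK 12.2. The bounds in the day 2 SNHG26 library were 16.5 for ECT2, 16.9 for KIF20A and 112 for both BUB1 and TOP2A. Among the 6 genes of highest TPM, PTTG1 and CDC20 were lowest there too, while CKS2, CCNB1, CKS1B and UBE2C had their lowest value in a control library. Whether the guide difference itself differed between days was tested by the crossed contrast of the 4 libraries. In limma 0 of the 39 genes passed, against 0.0967% of all genes, and 0 had an unadjusted p under 0.05, against 3.52%. The signed guide difference (SNHG26 minus control) was more positive on day 2 than on day 3 in 14 genes and less positive or more negative in 25, where it was more positive on day 2 in 45.1% of all genes. The lowest adjusted p was 0.961. KIF20B, at -1.17 on day 2 and 0.76 on day 3, had an unadjusted p of 0.119, and TTK, at -1.27 and 0.22, had 0.154.

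Other genes of cell division were read from lists that hold none of the 42. None of their genes passed the limma test in either comparison, with adjusted p-values of at least 0.273 for the guides and 0.287 for the days. Unadjusted p-values under 0.05 were found for 1 gene each of the anaphase-promoting complex, the cohesin and condensin list and the kinetochore list by guides, and for 2, 3 and 0 by days. As shares of the tested genes these are 7.14%, 5.56% and 3.33% by guides, against 4.07% of all genes, and 14.3%, 16.7% and 0% by days, against 6.61%. By days they were found also for 1 of 17 genes of the entry and exit list (5.88%) and 1 of 6 of the early cyclin list (16.7%). Subunits of the anaphase-promoting complex (14 of 16 tested) had 10 positive and 4 negative guide differences (median 0.13) and 8 positive and 6 negative day differences (median 0.05). Their highest gene, ANAPC11, its catalytic RING subunit, had 241 and 308 TPM with SNHG26 guides (day 2, day 3) and 263 and 299 TPM with control guides, and ANAPC15 had a mean of 146.5 TPM. Cohesin and condensin genes (18 of 22) had 12 positive guide differences (median 0.10) and 12 positive day differences (0.10). CDCA5 (sororin), a cohesin protector, stood at 38.9 and 61.6 TPM against 41.7 and 54.4 TPM, higher on day 3 in both arms, and SMC4 had a mean of 19.0 TPM. Other kinetochore and centromere genes (30 of 37) had 20 positive guide differences (0.14) and 18 positive day differences (0.16). CENPX stood at 201.5 and 233 TPM with SNHG26 guides against 172 and 135 TPM, a guide difference of 0.51 (SE 0.217). MAD2L1BP, which helps to end checkpoint signalling, stood at 70.0 and 101 TPM against 52.7 and 63.1 TPM.

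Genes of mitotic entry and exit, kinases and phosphatases among them (17 of 21), had more negative values. These were 10 of 17 for the guides (median -0.24) and 12 of 17 for the days (-0.27). The highest genes of this list were PPP1CA, a catalytic subunit of protein phosphatase 1, and STMN1 (stathmin), with means of 274 and 161 TPM. Regulators of mitotic transcription (10 of 18) were split 5 to 5 for the guides (-0.04) and 6 to 4 for the days (0.15). They were led by TFDP1, the partner of E2F, at 20.8 TPM, and by RBBP4, a MuvB subunit, at 15.7 TPM. Cyclins and kinases of the step before S phase (6 of 8) had 4 positive guide differences (0.28) and 1 positive day difference (-0.48). CCND1 (cyclin D1) stood at 22.9 and 15.2 TPM with SNHG26 guides and 24.7 and 11.5 TPM with control guides, lower on day 3 in both arms, with a day difference of -0.80 (SE 0.256) and a limma adjusted p of 0.700. CDK4 stood at 80.8 and 93.6 TPM against 85.4 and 42.7 TPM. The median day differences of mitotic genes and of these early genes thus had opposite signs, and the difference between the lists was not tested.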

How the data were processed

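Poly(A) RNA of 4 H9 libraries was reverse-transcribed with oligo-dT, amplified for 14 cycles and sequenced as nanopore long reads. The labels' protocols describe no molecular identifiers. The authors deposited gene-level TPM. Build GRCh38 and minimap2 2.24-r1122 are named in the submitters' processing notes. The counting tool, the annotation release and the filters are not given in the sources used here. The deposited gene length (other unit, bases) equals end minus start plus 1. The most frequent product of TPM and length was taken as 1 read, and 3087 genes came out whole in all 4 libraries within 0.001 read. For other genes the product gives an upper bound.

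Differences were taken on log2(TPM + 1), which understates changes of low genes. The 8274 genes whose TPM averaged 1 or more entered limma 3.58.1 (R 4.3.3, eBayes with a mean-variance trend, two-sided). P-values were adjusted by Benjamini-Hochberg over all of them, and 0.05 was the threshold. The script was tested on simulated data. Members and lists were chosen with earlier results of these data known. By the naming rule, every tested member has its value in each library, and each other list its 2 highest genes. Promoters are RefSeq's. Protein sequences were not used here. Alternatives were pseudocounts, filters, scaling, trend, a block and leaving out each library.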

Additional observations from a re-analysis of the deposited data

How the results depend on the processing

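No mitotic gene passed the threshold in the guide, day or crossed comparison under any alternative run. No gene of the other lists did in the guide or day comparison, and their crossed contrast was not counted under the alternatives. Adjusted p-values of mitotic genes in limma ran from 0.399 to 1 for the guides and from 0.347 to 1 for the days over these settings. The number of all genes called by day was 3 and became 0 with pseudocounts of 0.1 and 5, without a filter, at a mean TPM of 50 or more, with quantile normalization, without a trend, with the replicate block and without any 1 library (0 to 0). For the crossed contrast it was 8 and became 14 (pseudocount 0.1), 13 (mean TPM of 5 or more), and 0 with a pseudocount of 5, without a filter, at a mean TPM of 50 or more, without a trend, with the replicate block and without any 1 library (0 to 0). The cause was not tested. The block was the day in the guide comparison and the crossed contrast, and the arm in the comparison of days. After centring each arm, the 2 libraries of a day correlated at 0.0464 (Pearson), and after centring each day, those of an arm at -0.00651, across 8274 genes, which are not independent replicates. In each of the 3 comparisons 0 mitotic genes were called with the block, as without it.

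The median guide difference of mitotic genes became 0.17 over the 10 genes averaging 50 TPM or more. Without 1 library it ran from -0.10, without SNHG26 guides on day 3, to 0.038, without SNHG26 guides on day 2. The median day difference stayed positive under every alternative run, from 0.12 to 0.26 without 1 library. Leaving out 1 library leaves an arm with 1 library, which is assumed to vary like the others. The guide difference turned sign with quantile normalization for CDK1 (-0.043) and PLK1 (-0.0012) and with median ratio scaling for CDK1 (-0.044) and TPX2 (-0.024). The share of all genes tested that keep their sign without 1 library was not computed, so the next counts have no background beside them. Without 1 library, 15 of 39 guide differences and 25 of 39 day differences kept their sign. The guide differences that did not were those of CDK1 (-0.051 to 0.062), CCNB2 (-0.18 to 0.068), CCNA2 (-0.088 to 0.26), PLK1 (-0.25 to 0.40), AURKA (-0.10 to 0.56), BIRC5 (-0.042 to 0.22), CDCA8 (-0.10 to 0.41), BUB1B (-0.45 to 0.042), MAD2L1 (-0.29 to 0.13), CDC20 (-0.21 to 0.61), UBE2C (-0.067 to 0.36), UBE2S (-0.59 to 0.29), PTTG1 (-0.41 to 0.14), KIF20A (-0.64 to 0.60), KIF20B (-0.9997 to 0.59), KIF23 (-0.0021 to 0.62), CENPA (-0.51 to 0.34), CENPF (-0.14 to 0.63), NUF2 (-0.42 to 0.51), TPX2 (-0.10 to 0.14), NUSAP1 (-0.31 to 0.011), DLGAP5 (-0.19 to 0.15), ANLN (-0.085 to 1.85) and RACGAP1 (-0.27 to 0.53). The day differences that did not were those of CCNB1 (-0.15 to 0.19), CCNA2 (-0.23 to 0.17), AURKB (-0.22 to 0.057), CDCA8 (-0.19 to 0.38), MAD2L1 (-0.11 to 0.30), TTK (-0.42 to 0.84), KIF2C (-0.085 to 0.27), CENPE (-0.28 to 1.30), CENPA (-0.60 to 0.059), NDC80 (-0.13 to 0.011), TPX2 (-0.013 to 0.17), NUSAP1 (-0.025 to 0.31), HMMR (-0.25 to 0.88) and ECT2 (-0.17 to 0.74).

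Depth limits the low genes most, since a single read equals 0.653 to 0.803 TPM for a gene counted on a length of 10 kb.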
